A study of Mus musculus with 12 samples.

Results

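The comparison described here is that of the right ventricle (RV) with the left ventricle (LV) in control hearts of adult mice. It rests on 6 of the 12 RNA-seq libraries of the study: control LV 1 to 3 and control RV 1 to 3, taken by genotype, ventricle and the number in each library's title. The other 6 libraries came from LV and RV of adult hearts labelled Wnt LOF (loss of Wnt function). They took no part in the main calls. They are used here to see whether the control differences recur, to compare gene states between libraries, and in fits over all 12 libraries. All 12 were made from total RNA of whole ventricle, so every cell type of the wall contributes. The strain, the gene targeted, the driver of its loss, any allele that the controls carry and the number of animals were not given in the sources used here. The labels do not say that libraries of a group are from separate animals, so p-values measure a spread between libraries and not between animals. In the paired fits that is the spread of the RV minus LV difference between pairs of libraries.

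The RV pumps blood to the lungs at low pressure and the LV pumps it to the body at high pressure. The chambers also differ in origin, since much of the RV wall comes from second heart field cells and much of the LV wall from the first heart field. Canonical Wnt signalling stabilises beta-catenin, which acts with TCF/LEF factors on target genes, and secreted antagonists such as Wif1 and the Sfrp proteins bind Wnt ligands outside the cell. The transient outward potassium current, carried by Kv4 channels such as Kcnd2, sets early repolarisation of the muscle cell and is known to differ between regions of the heart.

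Each control library held 13274922 to 19173391 counted reads, and mitochondrially encoded genes took 5.06% to 7.42% of them. That share is uncertain, because some of these genes, such as mt-Co2, had 0 counts in all 6 libraries. Below, levels are in CPM, counts scaled to library size, given for LV 1, 2 and 3 against RV 1, 2 and 3 in that order, and a log2 fold change is that of RV over LV. Ventricular muscle genes dominated all 6 libraries, with Myh6 (cardiac myosin heavy chain) at 35117 to 37375 CPM in the LV and 35224 to 38835 CPM in the RV. The atrial genes Myl7 and Sln were at no more than 0.63 and 0.167 CPM. Myl2, the ventricular regulatory light chain, was at 5176, 2265 and 3367 CPM in LV 1 to 3 and 5099, 7105 and 4749.9 CPM in RV 1 to 3, lowest in LV 2. The Y-linked gene Ddx3y was at 135 and 126 CPM in the libraries numbered 3 and at no more than 0.769 CPM in the other 4, so sex was balanced between the ventricles. Libraries of equal number deviated together from their group means (r = 0.418, 0.26 and 0.505 for numbers 1 to 3 over 14899 genes, against -0.402 to 0.0907 for unequal numbers), and so they were paired.

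One pair needs care. Of the genes expressed over all 12 libraries, 21 behaved as switches, near 0 in some libraries and clearly expressed in others. Control LV 1 and RV 1 were in the same state for all 21, as were LV 3 and RV 3. Control LV 2 and RV 2 differed in 8 of the 21. Control LV 2 instead had the same state for all 21 as the libraries labelled WntLOF RV 1 and LV 1. Cwc22, a splicing factor gene, shows this: it was at 203, 11.8 and 209 CPM in control LV 1 to 3 and 192, 14.9 and 193 CPM in control RV 1 to 3. Both control libraries numbered 2 were low and the other 4 high, and the pair labelled WntLOF 1 was low too, at 18.6 and 13.3 CPM. Nxpe4 separated the libraries numbered 2, at 0.209, 11 and 0.377 CPM in control LV 1 to 3 and 0.224, 0.067 and 0.689 CPM in control RV 1 to 3. Of the control libraries only LV 2 expressed it. LV and RV labelled WntLOF 1 were at 9.54 and 11.9 CPM, and those labelled WntLOF 2 at 9.91 and 7.66 CPM. Counts of calls are therefore also given without pair 2. Of these 21 genes 18 were tested between the ventricles, and edgeR, DESeq2 and limma-voom with the pairs as a block called 0, with 2 at an unadjusted p under 0.05 in edgeR. Control pairs 1 and 3 share all 21 states, so a paired call of these genes was unlikely beforehand. The 0 therefore does not show whether pair 2 affects other calls.

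**Figure D1:**
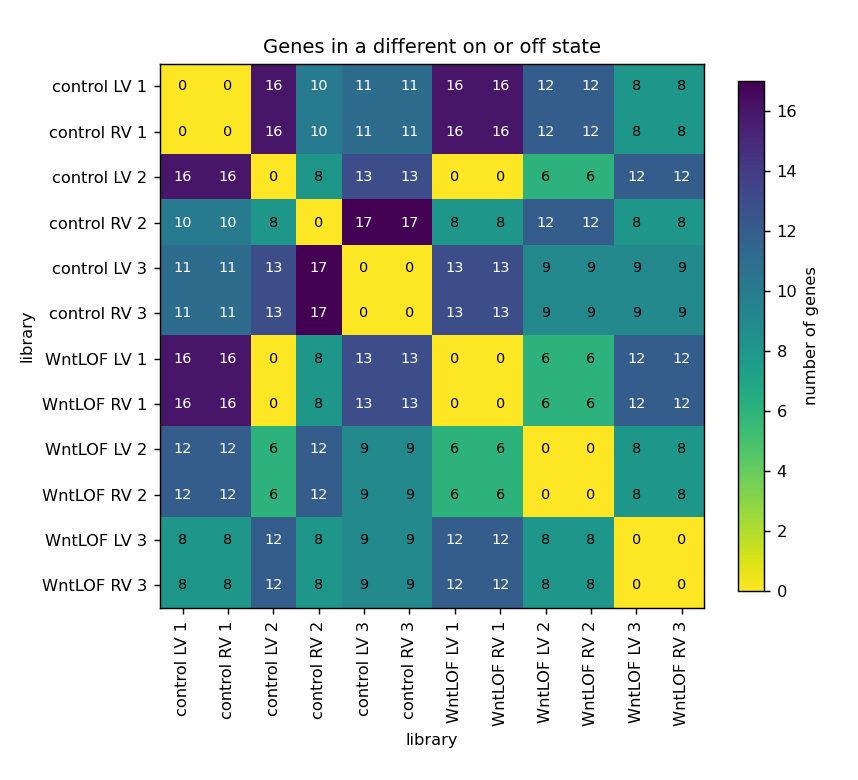
Number of the 21 switch-like genes in a different state (below 10% or above 30% of the highest library), for each pair of the 12 libraries, named by label on both axes. Control LV 1 with RV 1 and LV 3 with RV 3 differ in 0 genes, control LV 2 with RV 2 in 8, and control LV 2 differs in 0 from the libraries labelled WntLOF RV 1 and LV 1.

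Between the ventricles of control hearts, 326 of 14899 genes tested were called (2.19%) by edgeR's quasi-likelihood test with the pairs as a block and a Benjamini-Hochberg adjusted p under 0.05. Of these, 143 (0.96%) were higher in the RV and 183 (1.23%) were lower. On simulated counts this paired fit made more false calls than its threshold states, which bears on every call below. The differences were mostly small: the median size over the called genes was a log2 fold change of 0.48, and 21 genes were at least 2-fold higher and 16 at least 2-fold lower in the RV. RV and LV levels did not overlap in 209 of the 326, or 64.1%, beside 12.7% of all genes tested (6.73% with the RV above and 6.01% with the RV below). The median over all genes tested was 0.0042, with 51% above 0. Without the block 9 genes passed (0.0604%) and 8 of them were among the 326: Wif1, Aqp4, Kcnd2, Cadps2, Sort1 and Dsg2, higher in the RV, and Papln and Rtn4r, lower. Without pair 2, 67 passed (0.447%), of which 58 were among the 326. Without pair 1 the count was 691 (4.68%), in a fit where the model set the spread of most genes from genes of similar level. The p-values of that fit are therefore not comparable with those of the other fits. Without pair 3 the count was 193 (1.27%), and 47 genes, 23 higher and 24 lower in the RV, were called in all 3 of these fits and in that of all pairs. DESeq2 with the block called 184 genes (1.23%), 154 of them among the 326. An edgeR fit with the block over all 12 libraries, testing the same contrast of control hearts, called 0, with 1440 at an unadjusted p under 0.05. Its spread was estimated with the Wnt LOF pairs included, among them the pair labelled 1, which is described below.

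**Figure D2:**
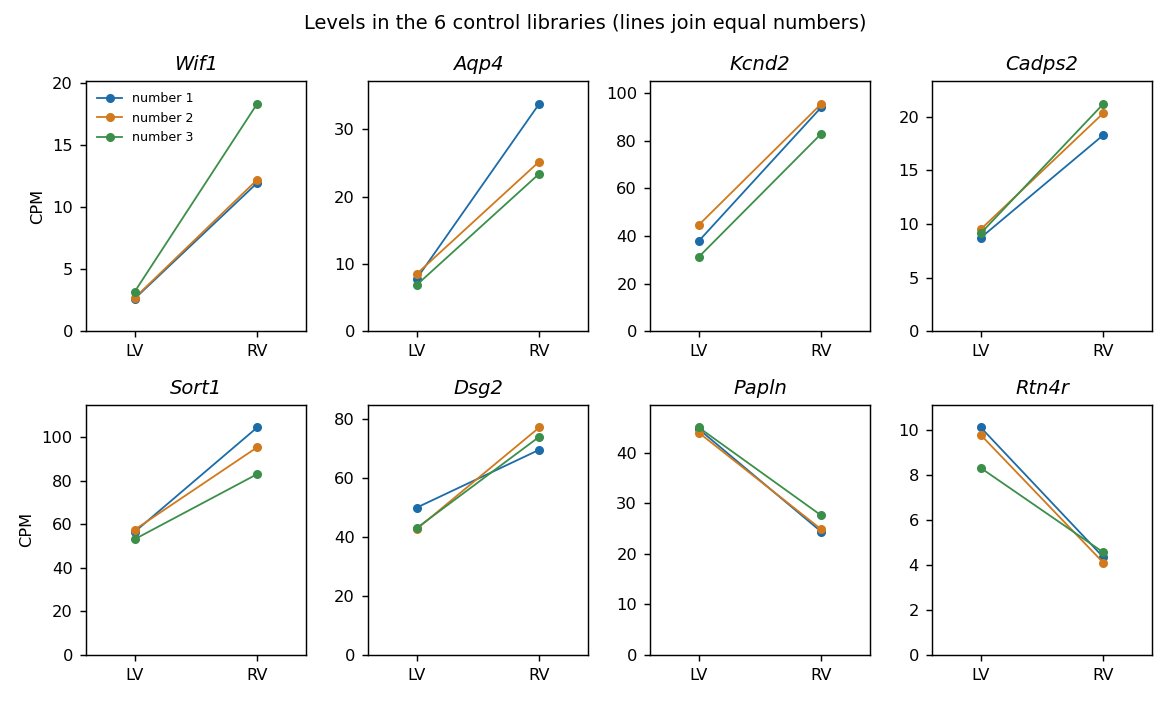
Level in CPM (vertical axes, from 0, a scale of its own for each gene) of the 8 genes called both with and without the block, in LV and RV of the control hearts; points are libraries and lines join equal numbers. Wif1 rises from at most 3.17 to at least 11.9 CPM, and in each of the 8 panels the LV and RV points do not overlap.

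The stretches upstream of Wif1, Kcnd2 and Cadps2 are shown because these genes were higher in the RV and were called with the block, without it, and without each pair in turn. Aqp4, Sort1 and Dsg2 met the same criterion and are not shown, so the 3 stretches do not stand for the 6 genes. Each is the first 200 bases of a RefSeq promoter window on build GRCm38.p6, 5′ to 3′ on the strand of the gene. All lie ahead of the first annotated start but need not reach it, so bases nearer the start may be missing. They are at chr10:121033754-121033953 (plus strand), chr6:21215096-21215295 (plus strand) and chr6:23839472-23839671 (minus strand). Capitals mark the E-box CACGTG, a motif of basic helix-loop-helix factors such as the Hey family, and ACANNTGT, a motif of Iroquois factors, searched on both strands.
Wif1: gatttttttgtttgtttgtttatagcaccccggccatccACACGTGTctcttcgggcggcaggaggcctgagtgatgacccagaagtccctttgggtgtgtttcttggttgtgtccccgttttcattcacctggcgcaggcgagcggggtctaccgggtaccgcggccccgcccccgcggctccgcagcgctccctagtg
Kcnd2: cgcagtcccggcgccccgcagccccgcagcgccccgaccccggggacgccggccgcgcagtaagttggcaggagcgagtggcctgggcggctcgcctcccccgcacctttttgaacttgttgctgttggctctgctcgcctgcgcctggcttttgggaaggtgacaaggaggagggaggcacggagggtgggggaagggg
Cadps2: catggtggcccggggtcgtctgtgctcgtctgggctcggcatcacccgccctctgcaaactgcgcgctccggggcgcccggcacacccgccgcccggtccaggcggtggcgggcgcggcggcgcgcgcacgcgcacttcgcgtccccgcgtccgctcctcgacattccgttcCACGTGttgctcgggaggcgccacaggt
In Wif1 the capitals ACACGTGT match both motifs in 1 overlapping place, Cadps2 holds CACGTG alone, and Kcnd2 holds neither. The TCF/LEF motif ATCAAAG is in none of the 3 stretches. Over the first 250 bases of RefSeq windows, CACGTG was in 6.02% of all 32851 windows, in 18 of 131 (13.7%) for called genes higher in the RV, and in 12 of 187 (6.42%) for those lower. All 32851 windows cover 27025 genes, many of them not among the 14899 tested, so their share is no background matched to the called genes. ACANNTGT was in 6.31%, 9.16% and 3.74% and ATCAAAG in 3.21%, 3.82% and 3.21% of the same windows. Of the 326 called genes 240 matched a window by symbol, some with several windows, and a match describes letters and not a bound site.

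The Wnt antagonists Wif1 and Sfrp1 and the ligand Wnt5a were higher in the RV. Wif1 (ENSMUSG00000020218), which binds Wnt proteins and keeps them from their receptors, was at 2.61, 2.68 and 3.17 CPM in LV 1 to 3 and 11.9, 12.2 and 18.3 CPM in RV 1 to 3. Every RV library lay far above every LV library, a 4.92-fold difference (log2 fold change 2.30, SE 0.14, adjusted p = 3.17e-07). Sfrp1, a secreted decoy for Wnt ligands, was at 9.84, 14.2 and 10.7 against 14.6, 19.9 and 12.9 CPM (log2 fold change 0.45, SE 0.11, adjusted p = 0.0444). Its groups overlapped, and the RV was the higher side of each pair. These were 2 of the 10 antagonists tested (20%, beside 0.96% of all genes called higher). The median of the 10 was 0.23, but it turned to -0.10 without pair 2 and was 0.46 without pair 3. Wnt5a, a ligand best known for signalling without beta-catenin, was at 10.6, 10.1 and 9.05 against 18.9, 22.3 and 11.7 CPM. The RV was the higher side in all pairs (log2 fold change 0.82, SE 0.13, adjusted p = 0.00586). Wnt5a was the only one called of 8 ligands and R-spondins tested (12.5%, beside 0.96% of all genes called higher).

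The receptors and the core of the pathway did not pass the test: 0 of 18 receptor genes and 0 of 17 genes of beta-catenin, the destruction complex and TCF partners were called by edgeR, DESeq2 or limma-voom. Their medians were -0.037 and -0.011, and 4 and 0 had an unadjusted p under 0.05. Ctnnb1, which encodes beta-catenin, was at 596, 424 and 508 against 558, 521 and 508 CPM in LV and RV (log2 fold change 0.068, SE 0.088, adjusted p = 0.81). Tcf7l2, a partner of beta-catenin on DNA, was at 10.7, 9.45 and 10.9 against 11.7, 12.1 and 12.5 CPM (adjusted p = 0.386). Of 15 target and feedback genes tested, 1 was higher and 1 lower (13.3% called, beside 2.19% of all genes). Tnfrsf19, a receptor of the tumour necrosis factor family and a reported Wnt target, was at 3.02, 3.47 and 3.55 CPM in LV 1 to 3 and 6.95, 8.51 and 4.48 CPM in RV 1 to 3 (log2 fold change 0.99, SE 0.19, adjusted p = 0.0138). Ccnd1, cyclin D1, went the other way at 71.7, 52.2 and 71.3 against 47.2, 32.9 and 54.9 CPM (log2 fold change -0.55, SE 0.078, adjusted p = 0.00142). The Tnfrsf19 groups did not overlap and the Ccnd1 groups did. Axin2, the common feedback target of canonical signalling, was at 7.07, 5.09 and 6.11 against 7.56, 8.12 and 4.55 CPM in LV and RV (adjusted p = 0.804). Without pair 2 the call held for Wif1 and was lost for Sfrp1, Wnt5a, Tnfrsf19 and Ccnd1 (adjusted p = 0.226, 0.122, 0.192 and 0.0558).

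Among ion channels the transient outward channel gene Kcnd2 had the largest called difference. Kcnd2 (ENSMUSG00000060882), the Kv4.2 pore subunit, was at 37.8, 44.6 and 31.2 CPM in LV 1 to 3 and 94, 95.5 and 82.9 CPM in RV 1 to 3. The lowest RV library was well above the highest LV library (log2 fold change 1.27, SE 0.078, adjusted p = 3.17e-07), a 2.41-fold difference. Its partners did not pass: Kcnip2, the KChIP2 subunit, was at 215, 226 and 199 against 204, 192 and 206 CPM, and Kcnd3, the Kv4.3 pore, at 28.9, 37.1 and 34.9 against 36.8, 35.8 and 41.5 CPM (adjusted p = 0.705 and 0.348). Kcna4, the Kv1.4 pore, was at 6.97, 9.45 and 8.6 against 6.89, 9.3 and 4.61 CPM (adjusted p = 0.517). Of 20 voltage-gated potassium channel genes tested, 2 were higher and 2 lower in the RV (20% called, beside 2.19% of all genes). DESeq2 with the block called 2 of the 20. Kcna1, the Kv1.1 pore, was at 8.15, 8.72 and 6.64 against 14.8, 17.2 and 9.23 CPM (log2 fold change 0.80, SE 0.13, adjusted p = 0.00292). Its groups did not overlap, and Kcna1 is also a marker of nerve and Schwann cells, whose 15 markers summed to 146 to 162 CPM in the LV and 159 to 195 CPM in the RV; their part in the result was not tested.

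On the lower side, Kcne1, the minK subunit of the slow delayed rectifier, was at 7.95, 10.2 and 7.24 CPM in LV 1 to 3 and 4.78, 5.74 and 5.52 CPM in RV 1 to 3 (log2 fold change -0.66, SE 0.15, adjusted p = 0.026), with no overlap. Kcna5, the Kv1.5 pore of the ultrarapid current, was at 51, 33.7 and 65.6 against 40.8, 25.1 and 55.2 CPM (log2 fold change -0.32, SE 0.075, adjusted p = 0.034). It was lower in the RV of each pair, though the pairs spread more than the ventricles. Kcnj5, a subunit of the acetylcholine-gated potassium channel, was at 99.2, 111 and 99.9 against 122, 128 and 124 CPM (log2 fold change 0.27, SE 0.068, adjusted p = 0.0479). It was the 1 gene called of 16 inward rectifier, background and pacemaker channels (6.25%, beside 2.19% of all genes). DESeq2 and limma-voom with the block called 0 of the 16, and edgeR gave 6 at an unadjusted p under 0.05. Kcnj2, the main pore of the inward rectifier, was at 108, 137 and 119 against 158, 158 and 133 CPM and Hcn4, a pacemaker channel, at 10.8, 11.7 and 21 against 11.5, 8.97 and 15.8 CPM (adjusted p = 0.0713 and 0.398). None of 18 sodium and calcium channel subunits was called by edgeR, DESeq2 or limma-voom, and 9 had an unadjusted p under 0.05. Without pair 2 Kcnd2 was the 1 gene of these channels still called.

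Cell contacts and calcium handling differed in few genes. Dsg2, the desmosomal cadherin of muscle cells, was at 50, 42.7 and 43.1 CPM in LV 1 to 3 and 69.7, 77.3 and 74.1 CPM in RV 1 to 3 (log2 fold change 0.70, SE 0.082, adjusted p = 0.000184), all RV libraries above all LV libraries. Xirp2, an actin-binding protein of the intercalated disc, was lower in the RV at 1336, 1489 and 1400.2 against 1012, 1019 and 1104 CPM (log2 fold change -0.43, SE 0.085, adjusted p = 0.0138), again with no overlap. They were the 2 called of 16 junction genes (12.5%, beside 2.19% of all genes), and the main gap junction gene Gja1 was at 345, 303 and 269 against 332, 355 and 288 CPM (adjusted p = 0.679). Of 26 genes listed for calcium handling and sodium transport, 3 were called (11.5%, beside 2.19% of all genes). Casq1 and Slc24a2 were lower. Sorcs2, the 1 called higher, is a sorting receptor that is counted again below among the secretion and sorting genes. Slc24a2, a potassium-dependent sodium-calcium exchanger, was at 3.49, 2.31 and 4.53 against 1.44, 1.32 and 1.3 CPM (log2 fold change -1.31, SE 0.24, adjusted p = 0.00879). Casq1, the skeletal form of calsequestrin, was at 8.51, 9.5 and 49.3 against 4.78, 6.4 and 29.4 CPM (log2 fold change -0.72, SE 0.11, adjusted p = 0.0019). Pair 3 was several times above the other pairs, so the Casq1 groups overlapped widely. Pln, phospholamban, was at 6158, 7136 and 6562 against 6725, 6809.6 and 6374 CPM (adjusted p = 0.988). Without pair 2 Xirp2 and Slc24a2 lost the call (adjusted p = 0.0822 and 0.0533).

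The water channel gene Aqp4 and 3 genes of secretion and protein sorting, Cadps2, Sort1 and Sorcs2, were higher in the RV. Aqp4 (ENSMUSG00000024411), a water channel best known from brain astrocytes, was at 7.79, 8.51 and 6.86 CPM in LV 1 to 3 and 33.8, 25.2 and 23.4 CPM in RV 1 to 3. The lowest RV library lay well above the highest LV library, a 3.54-fold difference (log2 fold change 1.82, SE 0.12, adjusted p = 3.17e-07). It was the 1 gene called of 5 aquaporins tested (20%, beside 0.96% of all genes). The vascular water channel Aqp1 was at 662, 507 and 609 against 639.8, 537 and 683 CPM, with overlapping groups. Cadps2, which primes dense-core vesicles for release, was at 8.71, 9.5 and 9.13 against 18.3, 20.3 and 21.2 CPM (log2 fold change 1.12, SE 0.11, adjusted p = 3.88e-05). Sort1, sortilin, which carries proteins between the Golgi and lysosomes, was at 56.5, 57.5 and 53.2 against 105, 95.5 and 83.1 CPM (log2 fold change 0.76, SE 0.073, adjusted p = 4.09e-05). For both genes the RV libraries stood apart from the LV libraries. Sorcs2, a receptor of the sortilin family, was at 23.7, 23.2 and 6.49 against 44.5, 38.4 and 13.8 CPM (log2 fold change 0.88, SE 0.094, adjusted p = 8.47e-05). Pair 3 was low in both ventricles, so the Sorcs2 groups overlapped although the RV was higher in each pair. These 3 were called of 15 secretion and sorting genes tested (20%, beside 0.96% of all genes). The median of the 15 was 0.043, and all 3 and Aqp4 were also called without pair 2.

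Genes of cilia, 3 in all, were higher in the RV at low levels. Ubxn10, a cilium assembly factor, was at 3.9, 3.78 and 3.32 CPM in LV 1 to 3 and 16.3, 18.1 and 8.71 CPM in RV 1 to 3 (log2 fold change 1.97, SE 0.16, adjusted p = 1.09e-05). Rp1, a microtubule protein of photoreceptor cilia, was at 1.03, 1.26 and 0.528 against 5.56, 5.67 and 2.21 CPM (log2 fold change 2.25, SE 0.23, adjusted p = 5.38e-05), and Cfap61, a radial spoke component, at 2.56, 1.58 and 1.96 against 5.5, 4.55 and 3.77 CPM (log2 fold change 1.19, SE 0.20, adjusted p = 0.00452). In each of the 3 the groups did not overlap, and RV 3 was the lowest RV library. They were the 3 called of 15 cilium genes tested (20%, beside 0.96% of all genes), with a median of 0.12 that was 0.003 without pair 1. Without pair 2 Cfap61 lost the call (adjusted p = 0.085). Of 10 listed epicardial and mesothelial markers 9 were among the counted genes. They summed to 12.8 to 33.3 CPM in the LV and 24.8 to 41.2 CPM in the RV, with overlap. The part of these markers' cells in the cilium genes was not tested.

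Of the genes that switch muscle from glucose to fatty acids, 6 were higher in the RV. Pdk4, the kinase that shuts pyruvate dehydrogenase, was at 616, 555 and 539 CPM in LV 1 to 3 and 1294, 890.3 and 913 CPM in RV 1 to 3 (log2 fold change 0.84, SE 0.091, adjusted p = 8.48e-05). Ucp3, a mitochondrial carrier of muscle, was at 48.9, 61.2 and 47.7 against 89.8, 91.5 and 73.8 CPM (log2 fold change 0.70, SE 0.076, adjusted p = 9.05e-05). All RV libraries were above all LV libraries for both genes. Acot1, an acyl-CoA thioesterase, was at 4.25, 5.04 and 6.41 against 6.56, 10.8 and 13.1 CPM (log2 fold change 0.93, SE 0.14, adjusted p = 0.00242), also without overlap. Its counts are uncertain because Acot2 is a near copy, and Acot2 was at 77.1, 88.7 and 88.6 against 90.9, 88.3 and 106 CPM (adjusted p = 0.313). Angptl4, a secreted inhibitor of lipoprotein lipase, was at 3.95, 9.66 and 10.3 against 8.22, 20.8 and 14.4 CPM (log2 fold change 0.88, SE 0.14, adjusted p = 0.00292) and overlapped between groups. Cpt1a, the liver-type enzyme that admits fatty acids to mitochondria, was at 81, 91.3 and 88.3 against 100, 111 and 107 CPM (log2 fold change 0.29, SE 0.066, adjusted p = 0.0339). Of 18 genes that respond to PPAR, the fatty acid sensing nuclear receptors, 6 were higher, among them the 5 given here, and 0 lower, a share of 33.3% beside 0.96% of all genes tested. Pdk4 and Ucp3 kept the call without pair 2, and Acot1, Angptl4 and Cpt1a lost it (adjusted p = 0.085, 0.129 and 0.123).

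Fatty acid uptake and oxidation leaned the same way by small amounts. Of 27 genes tested 25 were above 0, 12 had all RV libraries above all LV libraries (beside 6.73% of all genes), and the median was 0.18. Cpt1a and Slc27a1 were the 2 called (7.41%, beside 0.96% of all genes). Slc27a1, a fatty acid transport protein, was at 234, 277 and 261 CPM in LV 1 to 3 and 330.5, 333 and 354 CPM in RV 1 to 3 (log2 fold change 0.40, SE 0.079, adjusted p = 0.0138). Pla2g5, Acsm5 and Ces1d were singled out after their values were seen, because every fit without 1 pair called them higher in the RV. Pla2g5, a secreted phospholipase A2, was at 47.9, 50.2 and 35.4 against 89.7, 81.2 and 57.5 CPM (log2 fold change 0.77, SE 0.075, adjusted p = 4.09e-05). Acsm5, a medium-chain acyl-CoA synthetase, was at 2.92, 4.67 and 7.09 against 7, 11 and 14.7 CPM (log2 fold change 1.17, SE 0.14, adjusted p = 0.000179), and overlapped because pair 3 was high. Ces1d, a carboxylesterase, was at 149.9, 150.2 and 104 against 224, 203 and 178 CPM (log2 fold change 0.59, SE 0.08, adjusted p = 0.000771). Ces1d belongs to a family of near-identical copies, and its counts are uncertain.

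Of 30 genes of glucose uptake, glycolysis and glycogen, 1 was higher and 1 lower in the RV (6.67% called, beside 2.19% of all genes). Pfkfb1, which makes the activator of phosphofructokinase, was at 12.3, 17.1 and 21 CPM in LV 1 to 3 and 29.2, 32.1 and 35.9 CPM in RV 1 to 3 (log2 fold change 0.97, SE 0.10, adjusted p = 5.82e-05), with no overlap. Pfkp, the platelet-type phosphofructokinase, was at 105, 78.4 and 119 against 73.6, 55.5 and 102 CPM (log2 fold change -0.41, SE 0.075, adjusted p = 0.00902) and overlapped. Phkg1, the muscle phosphorylase kinase subunit that starts glycogen breakdown, was higher at 24.7, 28.6 and 19.6 against 48.7, 48.7 and 30.2 CPM (log2 fold change 0.80, SE 0.086, adjusted p = 8.47e-05); it was chosen after its value was seen. Pfkp lost the call without pair 2 (adjusted p = 0.125). Bdh1, the mitochondrial enzyme that interconverts ketone bodies, was at 131, 164 and 119 against 60.1, 46.1 and 59.4 CPM. The 3 RV libraries were far below the 3 LV libraries, yet the paired test did not pass (log2 fold change -1.32, SE 0.19, adjusted p = 0.0814), while the fit without the block called it (adjusted p = 0.0244). The paired fits without pair 1, 2 or 3 also called it (adjusted p = 2.02e-23, 0.00101 and 0.0171), as did DESeq2 with the block (adjusted p = 7.45e-05). In the fit without pair 1 the model set the spread of most genes from genes of similar level. The first of these values therefore need not reflect how far Bdh1 itself varied. Bdh1 was the 1 gene of the 9 called without the block that was not called with it.

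The nuclear genes of the respiratory chain were nearly all above 0, though few passed. For complex I 37 of 37 genes were above 0 (median 0.24, 0 called by edgeR, DESeq2 or limma-voom, 23 at an unadjusted p under 0.05). For complexes II to V 40 of 41 were above 0 (median 0.28), and 2 were called (4.88%, beside 0.96% of all genes). Over all genes tested 51% were above 0, with a median of 0.0042. Summed levels of the complex I genes were 7936 to 9915 CPM in the LV and 10096 to 11108 CPM in the RV. Uqcrq, a subunit of complex III, was at 206, 182 and 144 CPM in LV 1 to 3 and 241, 275 and 257 CPM in RV 1 to 3 (log2 fold change 0.55, SE 0.10, adjusted p = 0.022). Atp5g3, a ring subunit of ATP synthase that has near copies, was at 576, 554 and 455 against 641, 768 and 655 CPM (log2 fold change 0.38, SE 0.089, adjusted p = 0.0339). For both genes RV 2 was the highest library, LV 3 the lowest, and the groups did not overlap. Of 40 genes for cytosolic ribosomal proteins 36 were also above 0 and 1 was called (2.5%, beside 0.96% of all genes), with a median of 0.20 and summed levels of 1771 to 2302 CPM in the LV and 2268 to 2756 CPM in the RV. The fit without pair 1, which set the spread of most genes from genes of similar level, called 21 of the complex I genes and 19 of the ribosomal protein genes. That without pair 2 called 0 of each. The part of the ribosomal protein levels in the respiratory genes was not tested. Of the 7 mitochondrially encoded subunits tested 1, mt-Nd4, was higher (14.3%, beside 0.96% of all genes). It was at 1239, 1162 and 1582 against 1541, 1688 and 1962 CPM (log2 fold change 0.39, SE 0.087, adjusted p = 0.0293). Of the 13 listed, mt-Co2, mt-Atp8, mt-Atp6, mt-Nd3 and mt-Nd4l had 0 counts in all 6 libraries. The reason was not tested, and counts of mitochondrially encoded genes, mt-Nd4 among them, are uncertain. Uqcrq, Atp5g3 and mt-Nd4 lost the call without pair 2 (adjusted p = 0.154, 0.192 and 0.121).

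**Figure D3:**
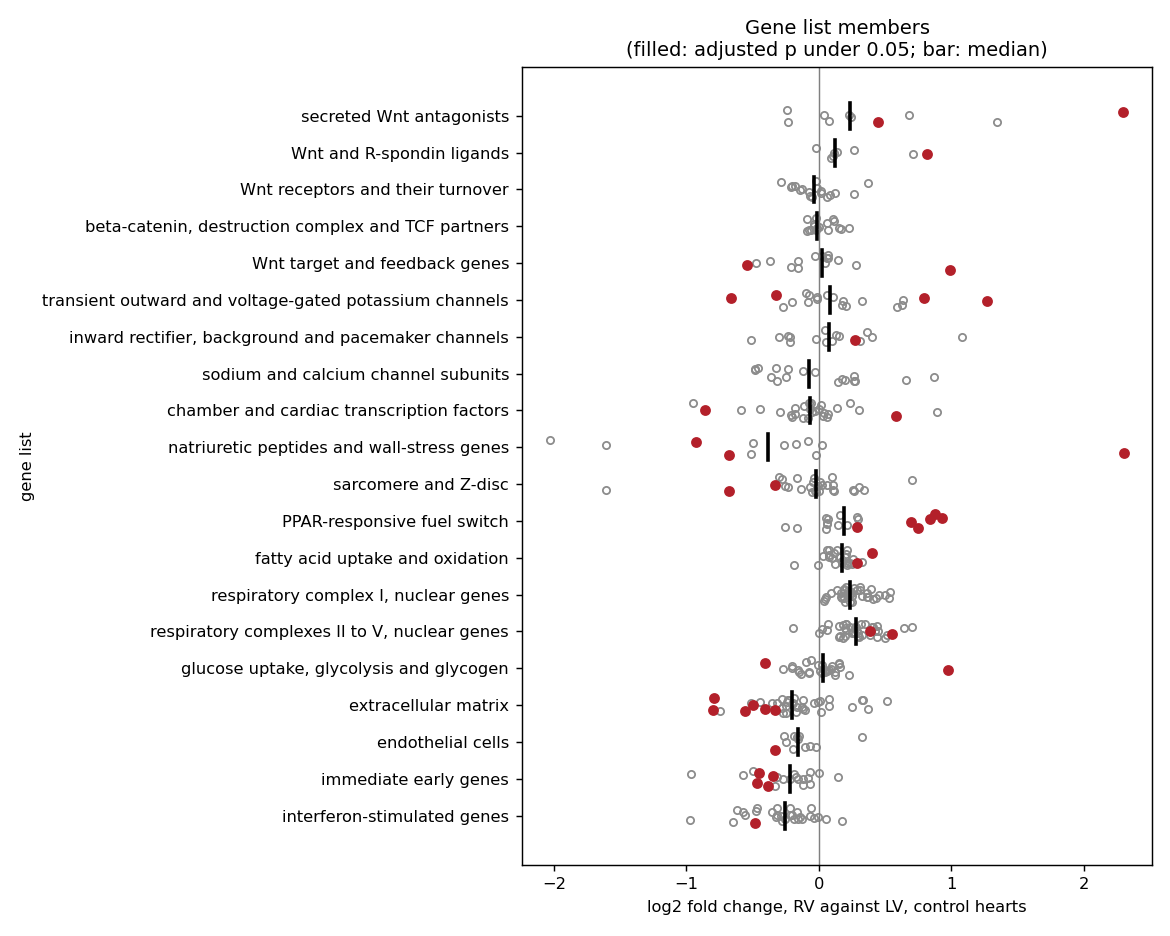
Log2 fold change, RV against LV, of each tested member of 20 gene lists (vertical axis) in the paired fit; filled points passed an adjusted p of 0.05 and the bar is the list's median. PPAR-responsive and respiratory chain genes lie mostly right of 0, and wall-stress, matrix, immediate early and interferon genes mostly left of 0.

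The stretch-responsive genes Ankrd23 and Ankrd1 were lower in the RV, that is, higher in the LV. Ankrd23, a titin-binding stretch sensor, was at 321, 336 and 427 CPM in LV 1 to 3 and 148, 151 and 298 CPM in RV 1 to 3 (log2 fold change -0.93, SE 0.12, adjusted p = 0.00709). Ankrd1, its relative that rises with wall stretch, was at 1128, 1294 and 1326 against 653, 652 and 1103 CPM (log2 fold change -0.68, SE 0.13, adjusted p = 0.03). In both genes the LV libraries were all above the RV libraries, and RV 3 was the highest RV library. Of 12 natriuretic peptide and wall-stress genes these 2 were called lower and 1 higher (25% called, beside 2.19% of all genes). Of the 12, 10 were below 0, with a median of -0.38. Without pair 2, 1 of the 12 was called. The summed level of that list was 3783 to 3947 CPM in the LV and 2629.5 to 3461 CPM in the RV. Mstn, myostatin, an inhibitor of muscle growth, was the 1 called higher, at 0.308, 0.21 and 0.603 against 0.5, 1.39 and 4.35 CPM (log2 fold change 2.30, SE 0.40, adjusted p = 0.00586), where the levels are near the detection limit. Nppb, the B-type natriuretic peptide, was at 105, 49.9 and 33.3 against 13.4, 19.3 and 10.7 CPM. The groups were far apart, but the size of the difference varied between pairs and the test did not pass (log2 fold change -2.03, SE 0.49, adjusted p = 0.317). DESeq2 with the block called it (adjusted p = 0.00363), as did edgeR without pair 1 (adjusted p = 1.19e-30) but not without pair 2 or pair 3 (adjusted p = 0.0881 and 0.693). The fit without pair 1 set the spread of most genes from genes of similar level, so its value need not reflect how far Nppb itself varied. Nppa, the atrial peptide, was at 40, 45.2 and 41 against 25.8, 55.6 and 15.3 CPM (adjusted p = 0.764), and Myh7, the slow myosin of fetal and stressed muscle, at 1329, 1402 and 1733 against 1293, 1516 and 1544 CPM (adjusted p = 0.928).

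Of 29 sarcomere and Z-disc genes, Ankrd1 and Flnc were lower (6.9%, beside 1.23% of all genes) and 0 were higher. Flnc, filamin C, a Z-disc crosslinker, was at 945, 889.6 and 911 CPM in LV 1 to 3 and 732, 683 and 771 CPM in RV 1 to 3 (log2 fold change -0.33, SE 0.081, adjusted p = 0.0459). Bag3, a co-chaperone that works on filamin, was at 226, 222 and 289 against 196, 178 and 216 CPM (log2 fold change -0.31, SE 0.077, adjusted p = 0.0447). Hspb7, a small heat shock protein of muscle, was at 1050.1, 1072 and 1529 against 804, 853 and 1179 CPM (log2 fold change -0.36, SE 0.081, adjusted p = 0.0293). The Flnc and Bag3 groups did not overlap and the Hspb7 groups did. Bag3 and Hspb7 were the 2 called of 22 heat shock genes (9.09%, beside 1.23% of all genes called lower). Myot and Synpo2l, further Z-disc proteins, were chosen after their values were seen. Myot was at 34.7, 26.1 and 74.7 against 15.8, 14 and 31.9 CPM (log2 fold change -1.10, SE 0.087, adjusted p = 4.68e-06), and Synpo2l was at 86.2, 112 and 174 against 51.4, 78.2 and 116 CPM (log2 fold change -0.62, SE 0.071, adjusted p = 0.000172). In both, pair 3 was highest in both ventricles. Mybpc2, the fast form of myosin-binding protein C, was at 28.8, 33 and 38.1 against 12.2, 14.7 and 24.4 CPM (log2 fold change -1.0, SE 0.11, adjusted p = 0.00045). Among the stress and Z-disc genes, Ankrd1, Flnc, Bag3 and Hspb7 lost the call without pair 2 (adjusted p = 0.122, 0.141, 0.147 and 0.0753). Ankrd23 was at the threshold (adjusted p = 0.0499), and Myot, Synpo2l and Mybpc2 kept the call.

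A group of extracellular matrix genes was lower in the RV: 6 of 39 tested, or 15.4%, were called lower, beside 1.23% of all genes, and 0 were called higher. Papln, papilin, a matrix glycoprotein, was at 44.6, 43.9 and 45 CPM in LV 1 to 3 and 24.3, 24.8 and 27.6 CPM in RV 1 to 3 (log2 fold change -0.80, SE 0.079, adjusted p = 4.09e-05). Col8a1, a short-chain collagen, was at 45.6, 44.3 and 51.5 against 25.1, 25.4 and 31.6 CPM (log2 fold change -0.79, SE 0.078, adjusted p = 4.09e-05). Col4a1, a chain of basement membrane collagen, was at 1039, 877 and 1169.6 against 716, 577 and 813 CPM (log2 fold change -0.56, SE 0.081, adjusted p = 0.00166). Its partner chain Col4a2 was at 681, 615 and 797 against 508, 400.1 and 583 CPM (log2 fold change -0.50, SE 0.081, adjusted p = 0.00354). Fbn1, fibrillin 1, was at 167, 170.3 and 171 against 128, 119 and 137 CPM, and Col15a1, a basement membrane collagen, at 144, 139 and 111 against 122, 122 and 74.3 CPM (log2 fold changes -0.41 and -0.33). Each of these genes except Col15a1 was lower in every RV library than in every LV library. The median over the 39 was -0.21. Papln, Col8a1, Col4a1 and Col4a2 kept their calls without pair 2.

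Of 12 endothelial markers 11 were below 0 and 1 was called (8.33%, beside 1.23% of all genes called lower). It was Tie1, a receptor of endothelial cells, at 158, 151 and 179.5 CPM in LV 1 to 3 and 122, 120.1 and 146 CPM in RV 1 to 3 (log2 fold change -0.33, SE 0.07, adjusted p = 0.022). Without pair 2 its call was lost (adjusted p = 0.093). The summed level of the 12 was 1483 to 1626 CPM in the LV and 1344 to 1447 CPM in the RV, and that of the matrix list was 4885 to 5627 CPM in the LV and 4199 to 4416 CPM in the RV; neither sum overlapped between the ventricles. In a bulk library, fewer cells of a type and less RNA per cell cannot be told apart, and the part of the endothelial share in the matrix genes was not tested. The next 6 genes come from no list: they were chosen after their values were seen, because every fit without 1 pair called them lower, and they stand for no group. Notch4, an endothelial Notch receptor, was at 59.6, 42 and 81.2 against 40.4, 33.3 and 55 CPM (log2 fold change -0.49, SE 0.076, adjusted p = 0.00245). Aplnr, the apelin receptor, was at 83, 62.5 and 51.2 against 58.3, 48.9 and 33.6 CPM (log2 fold change -0.49, SE 0.075, adjusted p = 0.00242), and Nrp2, a co-receptor for vascular growth factor and semaphorins, at 163, 95.2 and 125 against 98.9, 67.7 and 93 CPM (log2 fold change -0.55, SE 0.074, adjusted p = 0.00091). In all 3 the pairs differed more than the ventricles, so the groups overlapped. Adamts1, a secreted matrix protease, was at 87.5, 73.2 and 99.3 against 61.1, 48.4 and 56.8 CPM (log2 fold change -0.64, SE 0.075, adjusted p = 0.000184), without overlap. Nes, nestin, an intermediate filament, was at 95.9, 68.3 and 72.3 against 62.4, 52.5 and 52.2 CPM, and Ccnd2, cyclin D2, at 127, 101 and 104 against 90.2, 73.8 and 76.9 CPM (log2 fold changes -0.49 and -0.46), both without overlap.

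Immediate early and interferon genes leaned lower in the RV by small amounts, and few passed. Of 21 immediate early genes 20 were below 0 and 4 were called (19%, beside 1.23% of all genes called lower). Over all genes tested 51% were above 0. Klf2, a flow-responsive factor of endothelium, was at 31.2, 35.2 and 41.9 CPM in LV 1 to 3 and 27.3, 21.6 and 29.1 CPM in RV 1 to 3 (log2 fold change -0.47, SE 0.096, adjusted p = 0.022), and its relative Klf4 at 21.9, 21.5 and 24.1 against 18.3, 13.8 and 17.3 CPM (log2 fold change -0.45, SE 0.10, adjusted p = 0.0292). Jun, a part of the AP-1 factor, was at 64.1, 53.3 and 55.4 against 48, 40.4 and 47.3 CPM (log2 fold change -0.35, SE 0.074, adjusted p = 0.0223). Fosl2, a partner of Jun, was at 42, 39.5 and 34.8 against 35.6, 27.3 and 26.6 CPM (log2 fold change -0.38, SE 0.083, adjusted p = 0.0242). Klf2, Jun and Klf4 did not overlap between the ventricles, and Fosl2 did. Of 29 interferon-stimulated genes 27 were below 0 (median -0.26) and 1 was called (3.45%, beside 1.23% of all genes called lower). It was Ifit2, an antiviral RNA-binding protein, at 20.6, 20.8 and 15.2 against 16.3, 12.8 and 11.4 CPM (log2 fold change -0.48, SE 0.11, adjusted p = 0.0287). None of these 5 kept the call without pair 2. DESeq2 with the block called 0 genes of either list, while edgeR gave 11 immediate early and 12 interferon genes at an unadjusted p under 0.05.

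Of 28 chamber and cardiac transcription factors 2 were called (7.14%, beside 2.19% of all genes). DESeq2 and limma-voom each called 1 of them. Hey2, a Notch effector of ventricular compact muscle, was at 7.07, 9.77 and 7.39 CPM in LV 1 to 3 and 12.4, 12.5 and 11.2 CPM in RV 1 to 3 (log2 fold change 0.58, SE 0.13, adjusted p = 0.0255), with all RV libraries above. Irx1, an Iroquois factor, was lower in the RV at 13.9, 9.77 and 11.9 against 5.33, 5.15 and 9.68 CPM (log2 fold change -0.86, SE 0.19, adjusted p = 0.0455), again without overlap. Other members of that family did not pass. Irx5, which represses Kcnd2 in mouse ventricle, was at 13.1, 13.5 and 21 against 9.78, 8.31 and 5.85 CPM, with the groups apart (log2 fold change -0.95, SE 0.31, adjusted p = 0.293). Irx3, a factor of the conduction system, was at 40.4, 39.9 and 72.7 against 42.4, 49.8 and 50.4 CPM and Irx2 at 9.64, 6.88 and 8.75 against 5.89, 3.89 and 7.34 CPM (adjusted p = 0.943 and 0.0531). Hand2, a right-sided factor in the embryo, was at 28.6, 30.4 and 47.3 against 28.4, 28 and 41.2 CPM, and Tbx5, a left-sided one, at 17.7, 18 and 33.7 against 24.1, 20.9 and 23.1 CPM. Neither passed (adjusted p = 0.585 and 0.967), and pair 3 held the highest Hand2 level on both sides. Hand1 and Isl1, which mark heart fields in the embryo, had counts at or near 0 in all 6 libraries. Hey2 and Irx1 lost the call without pair 2 (adjusted p = 0.085 and 0.199). DESeq2 did not call Hey2 (adjusted p = 0.172), and limma-voom did not call Irx1 (adjusted p = 0.0525).

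Several of the largest differences lay outside these groups. On the lower side, Plekhh1, a protein with membrane-binding domains, was at 26.6, 37.8 and 16.4 CPM in LV 1 to 3 and 6.61, 9.7 and 7.93 CPM in RV 1 to 3 (log2 fold change -1.71, SE 0.18, adjusted p = 0.00387). Nrn1, neuritin, a membrane-anchored growth factor, was at 8.36, 14.9 and 7.69 against 2.72, 3.89 and 3.44 CPM (log2 fold change -1.60, SE 0.17, adjusted p = 5.82e-05). For both genes every RV library was below every LV library. Gnb3, a G protein beta subunit, was at 19.9, 16.4 and 21.6 against 8, 6.99 and 11.8 CPM (log2 fold change -1.13, SE 0.12, adjusted p = 5.82e-05). Rtn4r, the Nogo receptor, was at 10.1, 9.77 and 8.3 against 4.33, 4.09 and 4.55 CPM (log2 fold change -1.12, SE 0.15, adjusted p = 0.000626). These genes too were lower in every RV library than in every LV library. Of the 12 genes listed by size on this side, Cpxm2, Igfals, Cdh4, Cep126, Wasf3 and Klhl34 had log2 fold changes from -1.19 to -0.93, and the other 2, Slc24a2 and Mybpc2, are given above. Those 6 lost the call without pair 2 (adjusted p = 0.0857, 0.119, 0.206, 0.161, 0.115 and 0.0753). Edn3, endothelin 3, chosen after its value was seen, was at 1.49, 1.52 and 7.77 against 0.222, 0.462 and 1.75 CPM (log2 fold change -2.14, SE 0.27, adjusted p = 0.000501) and overlapped because LV 3 and RV 3 stood above the rest of their groups.

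On the higher side, Slc9a2, a sodium-proton exchanger, was at 6.2, 3.68 and 5.28 CPM in LV 1 to 3 and 13.6, 11 and 9.1 CPM in RV 1 to 3 (log2 fold change 1.17, SE 0.15, adjusted p = 0.000659). Cenpf, a centromere and microtubule protein, was at 53.5, 43 and 29.4 against 106, 140.2 and 57.8 CPM (log2 fold change 1.23, SE 0.17, adjusted p = 0.0406). For Cenpf RV 3 was close to LV 1, so the gap between the groups was narrow. Fam122b, 0610040J01Rik and Tmprss13, a transmembrane protease, were at lower levels, with log2 fold changes of 1.28, 1.32 and 1.04 and no overlap. They too lost the call without pair 2 (adjusted p = 0.0824, 0.0753 and 0.119). Rgs2, which dampens Gq signalling and was chosen after its value was seen, was at 25.5, 23.1 and 21.8 against 39.6, 33.8 and 33.7 CPM (log2 fold change 0.60, SE 0.081, adjusted p = 0.000747).

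**Figure D4:**
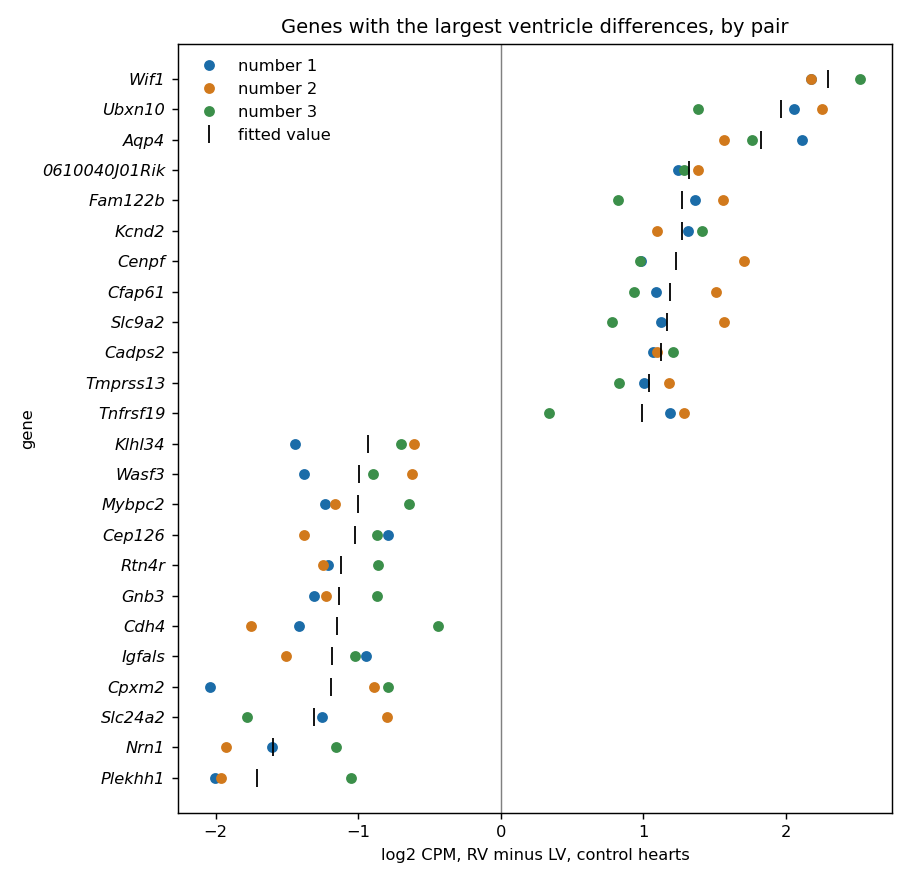
Difference in log2 CPM, RV minus LV, in each control pair (coloured points) for the 12 genes with the largest called rises and the 12 with the largest called falls whose groups do not overlap; the bar is the fitted log2 fold change. All points of a gene lie on 1 side of 0, and Tnfrsf19 and Cdh4 are closest to 0 in pair 3.

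Markers of other cell types gave few calls. None of 8 ventricular muscle markers was called by edgeR, nor any of 13 macrophage, 10 smooth muscle, 7 endocardial or 4 lymphatic markers tested. At an unadjusted p under 0.05 the counts were 3, 3, 2, 3 and 0, limma-voom called none of them, and DESeq2 called 1, Tnni3, a ventricular muscle marker. Fibroblast markers had 1 call of 11 (9.09%, beside 2.19% of all genes). It was Pi16, a marker of adventitial fibroblasts, at 92.7, 82.2 and 71.7 CPM in LV 1 to 3 and 80.6, 60.2 and 47.6 CPM in RV 1 to 3 (log2 fold change -0.41, SE 0.079, adjusted p = 0.0138), lower in the RV of each pair. Red cell markers had 2 calls of 7 (28.6%, beside 2.19% of all genes). Alas2, the heme synthesis enzyme of red cells, was at 12.9, 14.9 and 24.5 against 23.5, 21.6 and 29.9 CPM (log2 fold change 0.56, SE 0.11, adjusted p = 0.0161), and Hbb-bt, a globin with near copies, was at 4.05, 6.2 and 5.43 against 5.89, 12.3 and 8.51 CPM (log2 fold change 0.75, SE 0.15, adjusted p = 0.0138). The summed red cell markers were 129 to 155 CPM in the LV and 182 to 266 CPM in the RV, without overlap, so red cell transcripts differed with the comparison. Their part in other genes was not tested. Stard10, on the list of atrial markers, was at 22, 21.9 and 18.4 against 39.8, 34.4 and 21.6 CPM (log2 fold change 0.60, SE 0.11, adjusted p = 0.0121), while the defining atrial genes were near 0. Without pair 2 the calls of Pi16, Alas2, Hbb-bt and Stard10 were lost (adjusted p = 0.153, 0.147, 0.18 and 0.146). Epicardial markers had the widest spread: the median of 7 was 1.17, with 0 called by edgeR, DESeq2 or limma-voom and 0 at an unadjusted p under 0.05. Pair 3 decides these values: without it 4 of the 7 were called and the median was 2.42, while without pair 2 the median was 0.37 and 0 were called. In this group Upk3b, a mesothelial surface protein, was at 1.33, 1.26 and 5.81 against 6.28, 12.9 and 3.64 CPM (adjusted p = 0.701). It was highest in RV 2, low in LV 1 and LV 2, and in pair 3 higher in the LV.

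The libraries labelled Wnt LOF, which took no part in the calls, show whether the control differences recur. In the Wnt LOF pair numbered 2, 314 of the 326 called genes (96.3%) differed in the control direction, beside 65.2% of all genes tested. In pair 3 the count was 291 (89.3%, beside 59.5%). In the pair labelled 1 it was 31 (9.51%, beside 41.7%), so 295 genes went the opposite way between the libraries labelled WntLOF RV 1 and LV 1. Whether the LV and RV labels of that pair are exchanged was not tested; an exchange would turn its counts and change those over all 3 pairs and the interaction below. The median log2 difference in the called direction was 0.62, 0.26 and -0.36 in pairs 2, 3 and 1, and 0.47, 0.52 and 0.44 in control pairs 1 to 3, which the calls were made from. The 47 genes called in every fit without 1 pair, and in that of all pairs, had the control direction in 47, 47 and 0 cases in Wnt LOF pairs 2, 3 and 1. Both pairs 2 and 3 had the control direction for 283 of the 326 (86.8%, beside 42.9% of all genes tested), and all 3 pairs for 24 (7.36%, beside 16.9%).

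Wif1, Kcnd2, Aqp4, Papln and Nppb show the same reversal by label. RV minus LV in Wnt LOF pairs 1 to 3, on the log2 CPM scale, was -2.38, 3.07 and 2.99 for Wif1, and -0.74, 1.32 and 1.09 for Kcnd2. For Aqp4 it was -1.92, 2.12 and 1.37, for Papln 0.55, -1.14 and -0.57 and for Nppb 2.63, -2.51 and -0.43. In each of these genes pairs 2 and 3 have the sign of the control hearts and the pair labelled 1 has the other. Not every called gene reversed there: 295 did and 31 did not. Uqcrq was at 0.24, 0.97 and 0.49, Atp5g3 at 0.34, 0.68 and 0.35 and mt-Nd4 at 0.23, 0.93 and 0.84, the control direction in all 3 pairs as labelled.

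**Figure D5:**
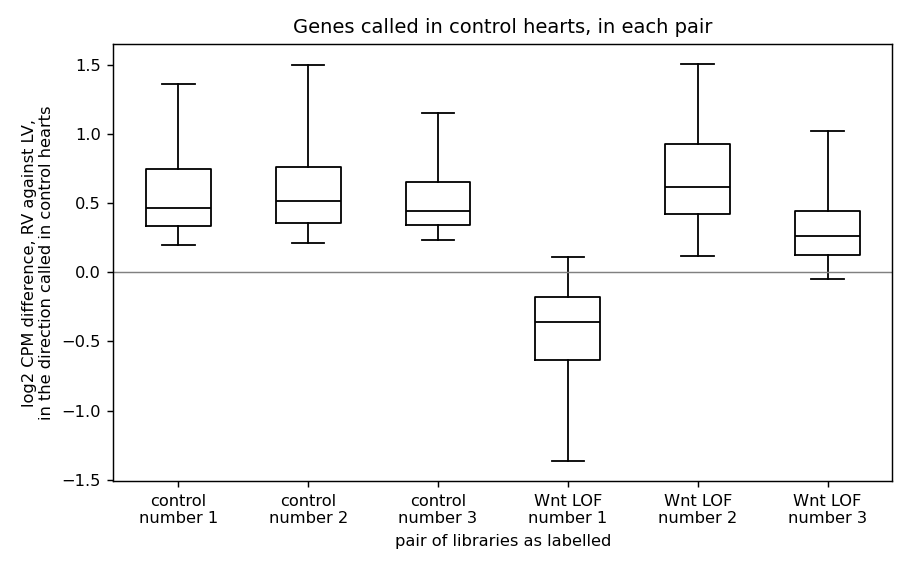
Log2 CPM difference, RV against LV as labelled and turned to the direction called in control hearts, of the 326 called genes in each of the 6 pairs; boxes give the quartiles and median, and whiskers the 5th and 95th percentiles. The control pairs lie above 0 because the calls were made from them; Wnt LOF pairs 2 and 3 have medians of 0.62 and 0.26 and the pair labelled 1 a median of -0.36.

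The difference between genotypes in the ventricle contrast was tested over all 12 libraries with pairs as blocks. Of 15494 genes 1 was called (0.00645%) by edgeR's quasi-likelihood test, and 633 had an unadjusted p under 0.05. The gene was Mir6236 (ENSMUSG00000098973), annotated as a microRNA gene, with an interaction of -1.55 on the log2 scale. In control hearts it was at 6.77, 14.3 and 8.68 CPM in LV 1 to 3 and 8.34, 15 and 12.7 CPM in RV 1 to 3 (log2 fold change 0.29, SE 0.12, adjusted p = 0.282), with overlapping groups, and in Wnt LOF pairs 1 to 3 RV minus LV was -1.28, -1.27 and -1.23. For Wif1, Kcnd2 and Aqp4 the interaction did not pass (adjusted p = 0.996 for each), in a fit that holds the pair labelled 1. Without that pair and control pair 2, 0 genes passed and 770 had an unadjusted p under 0.05.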

How the data were processed

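The authors deposited raw counts per Ensembl gene for 12 libraries, made from total RNA of whole ventricle. Per the submitters' processing notes featureCounts (Subread) and edgeR were used; the aligner, genome build and strandedness were not given in the sources used here. Counts of overlapping or antisense genes and of near copies are therefore uncertain. The table held 41192 lines for 40594 genes, and 598 repeated lines with equal counts were dropped. Columns and groups were matched by sample title.

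Counts of the 6 control libraries were fitted with edgeR 4.0.16 in R 4.3.3 (TMM, filterByExpr by ventricle, robust quasi-likelihood, replicate number as block), with Benjamini-Hochberg adjustment over 14899 genes and a threshold of 0.05. SE is the log2 fold change over the square root of F. CPM values use TMM sizes, and log2 CPM adds a prior count of 0.5. Equal numbers were taken as pairs because each pair's deviations correlated above 0.1; no label states what a number stands for. Switch-like genes had at least 3 CPM in the highest library, each library below 10% or above 30% of it, and at least 2 libraries in each state, with sex-linked genes left out.

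Alternatives were no block, leaving out pairs or single libraries, all 12 libraries, DESeq2 1.42.0, limma 3.58.1 voom, other size factors and other filters; the later form of edgeR's quasi-likelihood and the 2 interaction fits that leave out a single pair were added after seeing the data. The fits were tested on simulated data: the paired fit recovered large changes, and made more false calls than its threshold states.

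Named genes were up to 12 called genes per direction with the largest fold, a mean of at least 1 on the log2 CPM scale and groups apart; genes called with and without the block; up to 4 called members per direction of each of 47 lists; a fixed set of pathway, channel and chamber genes; and genes said in the text to be chosen after their values were seen. Of the genes the rule takes, 2 are not reported here. The comparison, members and lists were chosen with earlier results of these data known.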

Additional observations from a re-analysis of the deposited data

Results flagged for a closer look

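Irx2, an Iroquois factor, was lower in the RV in every control pair and higher in the RV in every Wnt LOF pair, where the mean log2 difference, RV minus LV, was 0.21. The values in Wnt LOF pairs 1 to 3 were 0.31, 0.25 and 0.079. The pattern rests on the pair labelled 1, in which 295 of the 326 called genes ran opposite to the control hearts: with its LV and RV labels turned, a reading added after seeing the data, Irx2 would be at -0.31 there and the mean at 0.0045. The difference between the genotypes was singled out because all pairs of 1 genotype moved one way and all of the other the opposite way; the interaction over all 12 libraries did not pass for it (adjusted p = 0.996), and the difference was not tested otherwise. In control hearts Irx2 did not pass the test between the ventricles (adjusted p = 0.0531, edgeR's quasi-likelihood test). Mir6236 was singled out by the test of the difference itself, with an interaction of -1.55 (log2) between ventricle and genotype. It was the 1 gene of 15494 to pass in the paired fit and did not pass without the replicate block. Without Wnt LOF pair 1 and control pair 2 together it did not pass either (adjusted p = 0.146, edgeR's quasi-likelihood test), and leaving out either alone kept the call. With the labels of the pair labelled 1 turned, its value there (-1.28) would have the sign opposite to pairs 2 and 3 (-1.27 and -1.23).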

How the results depend on the processing

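The count of 326 called genes depends on the pairing. With no replicate block it was 9, and in fits with no replicate block that leave out 1 library it ran from 0 (without control LV 1, with 1104 at an unadjusted p under 0.05) to 19 (without control RV 3). With the block and 1 pair left out it was 691 without pair 1, 67 without pair 2 and 193 without pair 3. In the fit without pair 1, the highest of these, the model set the spread of most genes from genes of similar level (infinite median prior degrees of freedom). All 12 libraries, fitted for the same contrast of control hearts, gave 0 with the block and 0 without it (1440 and 757 genes at an unadjusted p under 0.05). DESeq2 gave 184 with the block and 71 without, and no filter on low counts gave 805, also with infinite median prior degrees of freedom. limma-voom (312), other size factors (378 and 311), a stricter filter (349), edgeR's legacy form, which is its default here (326), and its later form (290) stayed within 1.5 times. For the interaction, the fit with no replicate block called 0 genes (312 at an unadjusted p under 0.05), as did that without Wnt LOF pair 1 and control pair 2 together (770); leaving out either alone gave 1. The number of called genes with the control direction in each Wnt LOF pair went from 24 to 283 without the pair labelled 1.

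Of 129 named genes, 1 changed sign under an alternative: Casq1, 0.58 with no replicate block and without control LV 3 (adjusted p = 0.988). Of 98 named genes called with the block, the call held in 86 without pair 1, in 50 without pair 2, in 71 of 97 without pair 3, in 8 without the block and in 69 with DESeq2. With 3 pairs and 13274922 to 19173391 counts a library, differences in genes near 1 CPM rest on few reads, and those called by the paired fit alone rest on a pairing read from the data. Blood content and cell-type shares were not modelled.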

Other observations

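Cell cycle genes mostly leaned lower in the RV, with called genes on both sides. Of 26 tested, 22 were below 0, 2 were called lower and 1 higher in the RV (11.5% called, beside 2.19% of all genes), and the median was -0.27. Mki67, a marker of cycling cells, was at 16.7, 7.46 and 22 CPM in LV 1 to 3 and 10.5, 5.61 and 10.3 CPM in RV 1 to 3 (log2 fold change -0.75, SE 0.13, adjusted p = 0.00665), and Top2a, a topoisomerase of dividing cells, at 8.66, 4.88 and 8.68 against 5.67, 2.77 and 6.43 CPM (log2 fold change -0.60, SE 0.15, adjusted p = 0.0478, edgeR's quasi-likelihood test). Both were lower in the RV of each pair, with overlapping groups. Cenpf, another gene of dividing cells, was the 1 called higher, in the RV of each pair. Without pair 2 Top2a lost the call (adjusted p = 0.204).

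Clock and glucocorticoid-responsive genes gave few calls. Per1, a clock gene that also responds to glucocorticoids, was lower in the RV at 65.2, 59.2 and 87.8 CPM in LV 1 to 3 and 54.6, 48.5 and 67.9 CPM in RV 1 to 3 (log2 fold change -0.31, SE 0.07, adjusted p = 0.0336). It was the 1 called of 18 clock genes (5.56%, beside 2.19% of all genes). Of 14 glucocorticoid-responsive genes, Per1 was lower and Angptl4 higher (14.3% called), with a median of -0.032. For Per1 the pairs differed more than the ventricles, and pair 3 was highest in both; without pair 2 its call was lost (adjusted p = 0.128).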
